A study of Triticum aestivum and Triticum urartu with 56 samples.

Results

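Transcription start sites of immature embryos were compared between *Triticum urartu*, the wild diploid wheat that carries the A genome, and chromosomes 1A to 7A of bread wheat, *Triticum aestivum*. The data were cap analysis of gene expression (CAGE) tags, each a count of RNA 5′ ends at 1 base of 1 strand. The tags came from 2 libraries of *T. urartu* G1812 (PI428198) and from 3 libraries of the hexaploid cultivar Chinese Spring, all from embryos taken 14 days post anthesis without any treatment. These 5 libraries are among 13 CAGE libraries and 56 samples of all kinds in a study of promoters and enhancers in wheat development. Members were chosen by label and chromosome only, though earlier results of these data were known. The *T. urartu* tags lay on the sequences Tu1 to Tu7, whereas the Chinese Spring tags were restricted to 1A to 7A. The comparison asks how start sites are laid out on the A genome in the diploid and on the A chromosomes of the hexaploid. It was made without aligning the sequences, so a cluster in one genome is never called the counterpart of a cluster in the other. Each species is represented by 1 accession mapped to its own reference. Species, accession, ploidy and reference therefore cannot be told apart.

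Bread wheat holds 3 related subgenomes, A, B and D, and *T. urartu* is the diploid relative of the donor of subgenome A. A tag in the hexaploid is kept only where it maps to a single place, and near-identical gene copies on B and D compete for it, whereas the diploid has no such copies. Promoters in plants start transcription either at 1 sharply preferred base, often downstream of a TATA box, or over a broad stretch. Starts on opposite strands that point away from each other are called divergent, and starts that face each other are called convergent. Chromosome 4A of bread wheat is known to have been rearranged by translocations with other chromosomes and by an inversion around its centromere, and a part of these changes arose in the polyploid.

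The *T. urartu* libraries held 5902766 and 8710684 tags, of which 94.2 and 93.9% lay on Tu1 to Tu7. The Chinese Spring embryo libraries held 15126910, 2970800 and 19980139 tags, of which 32.5, 30.6 and 30.8% lay on 1A to 7A. This left 5560737 and 8181681 tags in *T. urartu*, against 4915642, 908997 and 6151885 on 1A to 7A. The tags occupied 96972 and 202096 positions in *T. urartu*, against 62356, 46272 and 73847 positions on 1A to 7A, so that an occupied position carried on average 57.3 and 40.5 tags in *T. urartu*, against 78.8, 19.6 and 83.3 tags on 1A to 7A. Tags without molecular identifiers are not independent molecules, and the part of PCR copies in these means was not tested. One of the tissue labels of the Chinese Spring embryo samples names seedlings, whereas their title and age label name embryos. Over 140 equal stretches of 1A to 7A, these 3 libraries correlated at r = 0.985 to 0.990 with each other and at r = 0.686 to 0.795 with the 4 seedling libraries. The labelled tissue was not checked against marker genes in *T. urartu*, because the files used here pair no gene names with its positions. Nothing in the labels says that the libraries of a group came from separate plants, so p-values measure only the spread between these samples, which may be technical. With 2 libraries against 3, an exact permutation test cannot give a two-sided p below 0.1.

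Start-site clusters were made in the same way in both genomes, by joining same-strand positions no more than 20 bp apart. A cluster was kept when 2 libraries or more gave it 2 tags or more and its mean reached 0.1 RPM (tags per 1000000 tags of the whole library). *T. urartu* had 18713 clusters, against 11270 on 1A to 7A, a ratio of 1.66. Per length the densities were 4.01 clusters per Mb in *T. urartu* and 2.28 per Mb on 1A to 7A. Every chromosome of *T. urartu* had more clusters than its Chinese Spring namesake, with ratios between 1.47 for chromosome 4 and 1.81 for chromosome 1. The most densely filled chromosome was Tu1 in *T. urartu*, with 4.60 clusters per Mb, and 5A in Chinese Spring, with 2.60 per Mb. Chromosome 3 was the sparsest in both, with 3.49 per Mb in *T. urartu* and 2.08 per Mb on 3A. Subgenomes B and D of the same embryo libraries held 11618 and 11291 clusters, close to the 11270 of subgenome A.

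**Figure D1:**
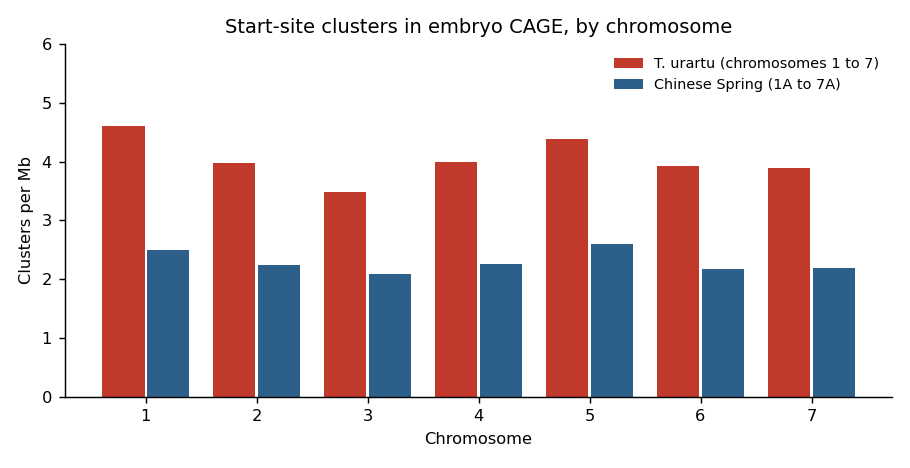
Clusters per Mb (vertical axis) on each of the 7 chromosomes (horizontal axis) in *T. urartu* (red, left bars) and on 1A to 7A of Chinese Spring (blue, right bars); 1 value per chromosome, made over all libraries of a species. The red bars run from 3.49 to 4.60 and the blue bars from 2.08 to 2.60, and the red bar is the taller in all 7 pairs.

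The 2-library rule asked for both *T. urartu* libraries but for any 2 of 3 Chinese Spring libraries, which favours Chinese Spring, whereas *T. urartu* had on average more tags per library on the compared chromosomes. With 2 Chinese Spring libraries at a time, 6255 to 7623 clusters were left on 1A to 7A, which put the ratio at 2.45 to 2.99. With every library thinned to the 908997 tags of the shallowest one, *T. urartu* had 11613 clusters, against 9024 on 1A to 7A, a ratio of 1.29. With equal tags and 2 libraries in both species the ratio was 2.06 to 2.18. Clusters were therefore more numerous in *T. urartu* than in the Chinese Spring embryo libraries under each of these rules, by a factor between 1.29 and 2.99. Other Chinese Spring tissues gave other counts on 1A to 7A. By the same rule the 2 root libraries had 21348 clusters and the 2 spikelet libraries 14660. With equal tags the counts were 15403 in root, 10540 in spikelet and 16453 in seedling (any 2 of 4 libraries), against 11613 in *T. urartu*.

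The clusters of *T. urartu* also lay closer together than those of the Chinese Spring embryo libraries. The median distance between neighbouring top positions on a strand was 6732 bp in *T. urartu*, against 271879 bp on 1A to 7A, and 39.0% of such distances in *T. urartu* and 26.5% on 1A to 7A were under 1000 bp. When clusters on a strand within 5000 bp of each other were counted once, as a locus, 9613 loci were left in *T. urartu*, against 7698 on 1A to 7A. This ratio of loci, 1.25, was smaller than that of clusters. With 10000 bp in place of 5000 bp, 9075 loci were left in *T. urartu* and 7449 on 1A to 7A. Few *T. urartu* distances thus lay near their median of 6732 bp. The medians of 6732 and 271879 bp are therefore a poor measure of how far the species differ. A locus held on average 1.95 clusters in *T. urartu*, against 1.46 on 1A to 7A, and 38.9% of loci in *T. urartu* and 26.1% on 1A to 7A held more than 1 cluster. The values on B and D were 1.46 and 1.48 clusters per locus. Taking the 8000 highest clusters of each library on its own, a locus held 1.52 and 1.66 clusters in the *T. urartu* libraries, against 1.19, 1.21 and 1.20 in the Chinese Spring embryo libraries. These groups do not overlap (exact permutation test, two-sided, p = 0.1, the smallest possible). By this rule both *T. urartu* libraries also lay above all 11 Chinese Spring libraries. With all clusters of each library on its own, a locus held 2.03 and 2.51 clusters in *T. urartu*, against 1.35 to 1.44 in Chinese Spring embryo. The root libraries had 2.16 and 2.18. With equal tags, root again lay between the *T. urartu* values of 1.84 and 2.09. Embryo loci then numbered 17583 and 24400 in *T. urartu*, against 18646, 19646 and 21867 on 1A to 7A (exact permutation p = 0.8). The files used here give no gene models for *T. urartu*, so clusters at an annotated start and clusters within a gene were not told apart.

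Clusters were longer in *T. urartu* when all libraries of a species were pooled. Of the pooled clusters, 10407 (55.6%) in *T. urartu* and 5092 (45.2%) on 1A to 7A exceeded 10 bp, beyond which the study speaks of a broad start site. The median length was 13 bp in *T. urartu* and 9 bp on 1A to 7A, and the stretch that held the central 80% of the tags had a median of 7 bp in *T. urartu* and 5 bp on 1A to 7A. Clusters of a single base made up 9.42% in *T. urartu*, against 11.1% on 1A to 7A, clusters of 2 to 5 bp 21.8%, against 28.6%, and clusters over 50 bp 9.22%, against 4.35%. The 7 chromosomes differed little among themselves, with 54.8 to 57.3% of clusters longer than 10 bp on Tu1 to Tu7 and 42.5 to 46.4% on 1A to 7A. Subgenomes B and D had 44.2 and 44.8% such clusters.

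This difference did not hold up library by library. Over clusters with at least 20 tags in a library, 35.6 and 54.5% were longer than 10 bp in *T. urartu*, against 29.5, 38.2 and 29.1% on 1A to 7A. The first *T. urartu* library lay below the second Chinese Spring library, and the groups overlapped (difference of means 12.8 percentage points, exact permutation test, two-sided, p = 0.3). The top position, the base with the most tags, held a median share of 89.2 and 59.8% of a cluster's tags in *T. urartu*, against 93.8, 70.3 and 93.7% on 1A to 7A (exact permutation p = 0.5). A median of 2 and 4 positions was occupied in such a cluster in *T. urartu*, against 2, 3 and 2 on 1A to 7A, so in both species the library with the most occupied positions per cluster was also the one with the broadest clusters.

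With equal tags per library the groups no longer overlapped. Thinned to 908997 tags each, the libraries had 60.3 and 78.3% of clusters longer than 10 bp in *T. urartu*, against 37.6, 38.8 and 43.4% on 1A to 7A, and the median share of the top position was 53.3 and 40.0% in *T. urartu*, against 72.4, 69.0 and 62.4% on 1A to 7A (exact permutation p = 0.1 for both, the smallest possible). Thinning also changed which clusters entered, from 12406 and 12773 clusters with at least 20 tags to 3722 and 3146 in *T. urartu*, and from 6318, 3368 and 7240 to 2959, 3201 and 2808 on 1A to 7A. Tags per occupied position in clusters were still 21.3 and 13.7 in *T. urartu*, against 37.3, 34.6 and 34.4 on 1A to 7A. Thinned alike, the seedling, spikelet and root libraries of Chinese Spring overlapped with *T. urartu*. They had 37.5 to 70.2% of clusters longer than 10 bp on 1A to 7A. Their median share of the top position was 40.7 to 80.6%.

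**Figure D2:**
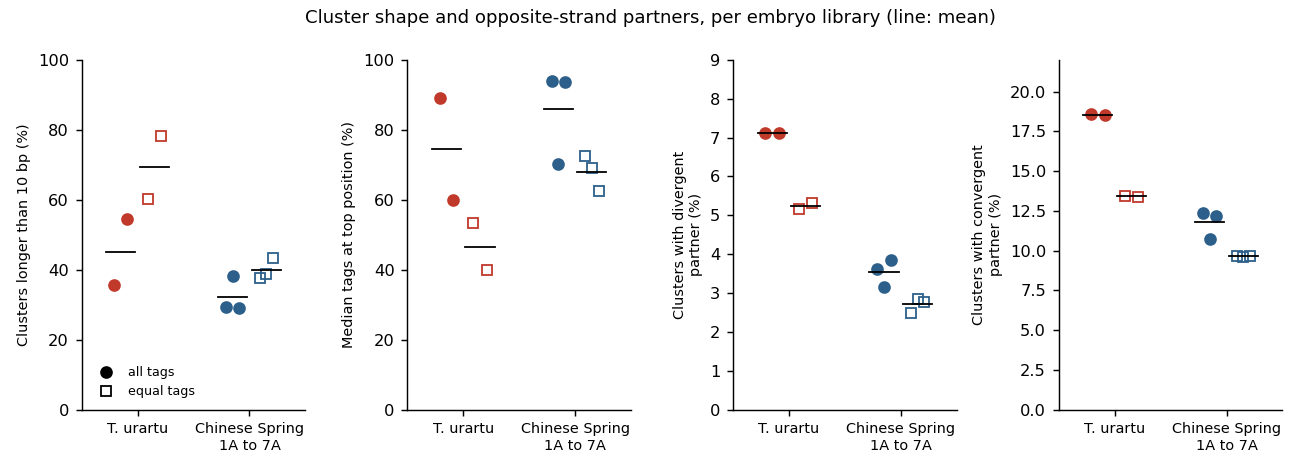
Share of clusters longer than 10 bp, median share of tags at the top position, and share of clusters with a divergent or a convergent partner (vertical axes, %), for each embryo library of *T. urartu* (red, left) and of Chinese Spring on 1A to 7A (blue, right). Filled circles use all tags, open squares 908997 tags per library, and lines are means; the red and blue circles overlap in the left pair of panels, and do not overlap in the right pair.

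The share of clusters longer than 10 bp rose with level in both species. Among clusters of 0.1 to 1 RPM, 30.4% were longer than 10 bp in *T. urartu*, against 29.4% on 1A to 7A. At 1 to 10 RPM the shares were 46.7% in *T. urartu* and 42.4% on 1A to 7A, at 10 to 100 RPM 75.7% and 73.3% in the same order, and above 100 RPM 93.4% in *T. urartu* and 88.3% on 1A to 7A. By this share the species were closer to each other within each level class than in all clusters pooled. The median width holding 80% of the tags did not rise further in the highest class. From the lowest class to the highest it was 4, 5, 14 and 14 bp in *T. urartu*, against 3, 4, 11 and 8 bp on 1A to 7A. The clusters of *T. urartu* sat higher in RPM, with a median of 6.26 RPM, against 3.09 RPM on 1A to 7A. RPM counts all tags of a library, and in Chinese Spring most of them lay outside 1A to 7A, so levels in RPM are not on 1 scale between the species.

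Replicates within a species agreed only in part. Called in each library alone, *T. urartu* had 45260 and 91269 clusters, against 32924, 26478 and 38071 on 1A to 7A, far more than the 18713 and 11270 kept by the rule on 2 libraries. Of the single positions with at least 10 tags in one library, 44.0% of those of *T. urartu* replicate 1 carried a tag in replicate 2 and 23.4% the other way round, against 18.7 to 28.4% between the Chinese Spring libraries. Among clusters kept by the rule and with at least 20 tags in both libraries, the top position was the same base in 37.98% of 10010 clusters in *T. urartu*, against 39.1 to 43.2% of 2517 to 4469 clusters in the 3 pairs of Chinese Spring libraries. It lay within 5 bp in 64.5% of clusters in *T. urartu*, against 68.2 to 71.4% on 1A to 7A. Across clusters found in both libraries of a pair, log2 RPM correlated at r = 0.71 in *T. urartu* and at r = 0.65 to 0.69 on 1A to 7A. These correlations are across clusters, which are not independent replicates. Of the 11270 clusters on 1A to 7A, 4396 (39.0%) had at least 2 tags in all 3 libraries.

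Opposite-strand partners were more frequent in *T. urartu*. A divergent partner, with the minus-strand top position at most 500 bp before the plus-strand one, was found for 7.12 and 7.12% of clusters in the *T. urartu* libraries, against 3.63, 3.17 and 3.86% on 1A to 7A (difference of means 3.57 percentage points, exact permutation test, two-sided, p = 0.1, the smallest possible). The groups do not overlap. The near-identical *T. urartu* values come from 1 set of clusters, since every cluster had to be present in both libraries. Called in each library alone, a divergent partner was found for 9.40 and 9.85% of clusters in *T. urartu*, against 4.98, 4.07 and 4.93% on 1A to 7A. With the 8000 highest clusters of each library, so that all libraries had equally many clusters, the shares were 3.21 and 3.21% in *T. urartu*, against 1.51, 1.65 and 1.21% on 1A to 7A. The 2 libraries of *T. urartu* were above the 3 of Chinese Spring under each of these rules.

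Convergent partners outnumbered divergent ones in both species and showed the same order. They were found for 18.6 and 18.5% of clusters in *T. urartu*, against 12.4, 10.7 and 12.2% on 1A to 7A (exact permutation p = 0.1). Over all 11 Chinese Spring libraries the highest value was 15.6%. With the 8000 highest clusters, 7.85 and 7.61% stood against 3.05 to 6.575% in those libraries. Called in each library alone, however, the groups overlapped, with 17.9 and 15.5% in *T. urartu*, against 7.58 to 19.5%. The root libraries then had 17.4 and 19.5%. The 2 kinds of partner peaked at different distances. Convergent pairs were most frequent at 100 to 200 bp, with 42.1 pairs per 1000 clusters in *T. urartu*, against 31.4 on 1A to 7A. Divergent pairs were most frequent within 100 bp, with 14.6 per 1000 clusters in *T. urartu*, against 9.94 on 1A to 7A. In every 100-bp step up to 1000 bp in both directions, *T. urartu* had more pairs per 1000 clusters than 1A to 7A.

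**Figure D3:**
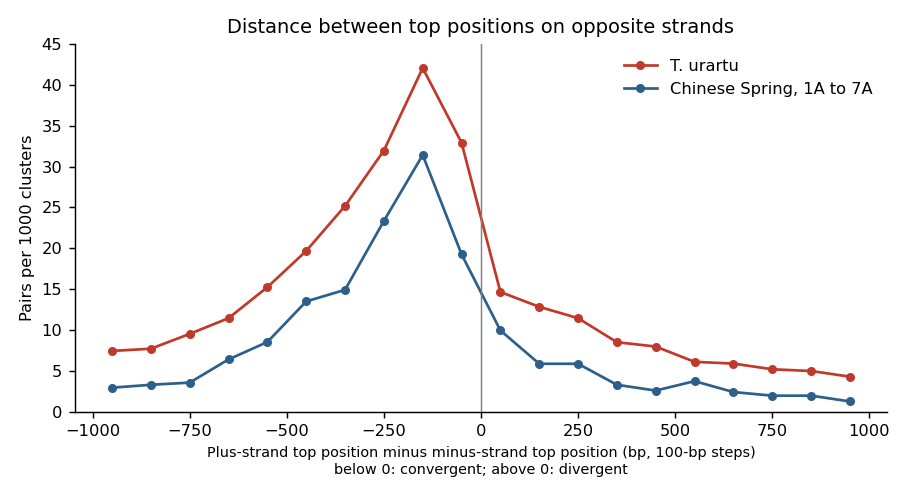
Pairs of top positions on opposite strands per 1000 clusters (vertical axis) by the distance of the plus-strand from the minus-strand top position in 100-bp steps (horizontal axis; below 0 convergent, above 0 divergent), in *T. urartu* (red) and on 1A to 7A of Chinese Spring (blue), pooled over libraries. Both curves peak at 100 to 200 bp on the convergent side, at 42.1 in *T. urartu* and 31.4 on 1A to 7A.

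The pooled clusters formed 639 divergent pairs in *T. urartu*, against 233 on 1A to 7A. Their members were alike in the 2 species in several respects. The median distance between top positions was 153 bp in *T. urartu* (quartiles 57 and 257 bp), against 129 bp on 1A to 7A (quartiles 44 and 251 bp). The 2 members of a pair were within 4-fold of each other in 310 pairs (48.5%) in *T. urartu* and in 114 pairs (48.9%) on 1A to 7A. Of the paired clusters 53.1% in *T. urartu* and 47.7% on 1A to 7A were longer than 10 bp, against 55.8% and 45.1% of the unpaired clusters of the same species. Chromosome 2 had the most pairs in *T. urartu*, with 130 pairs and 9.23% of its clusters paired, whereas on the A chromosomes 4A had the most, with 43 pairs and 5.37% of its clusters. Chromosome 7 had the lowest paired share in both, with 4.74% in *T. urartu* and 2.86% on 7A.

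The strongest divergent pair of *T. urartu*, by the level of its weaker member, lay on Tu1 at 91.6% of the chromosome's length. Its minus-strand cluster (positions 535036101 to 535036132) had 696 and 581 RPM in the 2 libraries and was narrow, with 80% of the tags in 3 bp. Its plus-strand cluster (535035925 to 535036389) had 642 and 550 RPM and was spread over 465 bp. This stretch runs across the minus-strand cluster, so the pair is divergent by its top positions only. The top positions were 206 bp apart. On chromosome 1A a divergent pair with the same distance of 206 bp lay at the same 91.6% of the length (part 2 of the chromosome, 72873166 to 72873170 on the minus and 72873346 to 72873414 on the plus strand). It was the second strongest pair of the A chromosomes, with 36.0, 47.8 and 31.5 RPM on the minus and 30.4, 25.9 and 59.1 RPM on the plus strand. The match in distance and place was seen after the pairs had been chosen by level, and whether the sequences correspond was not tested. The strongest pair on the A chromosomes, 162 bp apart on 1A (part 1, 351344999 to 351345015 and 351345126 to 351345227), overlapped clusters that the study lists under TraesCS1A02G193900 on the minus strand and TraesCS1A02G194000 on the plus strand. Its members had 35.8, 56.6 and 41.9 RPM on the minus strand and 69.1, 21.5 and 37.1 RPM on the plus strand. The other named pairs were 119 bp apart on Tu3 (at 32.6% of its length), 31 bp apart on Tu1 (at 12.4%) and 164 bp apart on 7A (at 11.5%). In the 31-bp pair the plus-strand cluster (72170810 to 72170814) lies inside the minus-strand cluster (72170750 to 72170941). That pair, too, is divergent by its top positions only. In these 6 pairs, chosen by level, one member had 80% of its tags within 6 bp or less, and the other had them spread over 21 bp or more. Over all pairs, exactly 1 member was longer than 10 bp in 391 of 639 pairs in *T. urartu* and in 124 of 233 pairs on 1A to 7A.

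The divergent share was also set against the other Chinese Spring tissues. Over all 11 Chinese Spring libraries, from embryo, seedling, spikelet and root, the share of clusters on 1A to 7A with a divergent partner had a lowest value of 2.89%, a median of 3.86% and a highest value of 4.98%. Both *T. urartu* libraries, at 7.12%, lay above all 11 (exact permutation test, two-sided, p = 0.0128, the smallest possible with 2 against 11, and 0.0513 after Benjamini-Hochberg adjustment over 4 measures). It failed the adjusted threshold of 0.05. With clusters called in each library alone the shares of 9.40 and 9.85% again exceeded those of all 11 libraries, which ran between 4.07 and 8.12%, and with the 8000 highest clusters 3.21 and 3.21% stood against 1.10 to 1.72%. The other measures overlapped. The median share of the top position was between 50.4 and 93.8% in the 11 libraries, a range that holds both *T. urartu* values, and the adjusted p-values were 0.803 for the width, 0.872 for the top position and 0.803 for the share of tags in the outer 10% at each end.

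Along the chromosomes, clusters were dense towards both ends and sparse in the middle in both species, as gene density is in the large wheat chromosomes. The first and the last 10% of the length held 5.37 and 6.22 clusters per Mb in *T. urartu*, against 3.54 and 3.51 per Mb on 1A to 7A, and the central 20% held 2.38 per Mb in *T. urartu*, against 1.34 per Mb on 1A to 7A. The outer 10% at each end held 32.2 and 31.6% of the tags in *T. urartu*, against 31.9, 31.9 and 35.2% on 1A to 7A, and the groups overlapped (exact permutation p = 0.7). By clusters the share was 28.9% in both *T. urartu* libraries, against 31.2, 30.8 and 30.9% on 1A to 7A, and by occupied positions 30.5 and 30.5%, against 33.8, 33.3 and 33.9%, in both cases without overlap and with exact permutation p = 0.1. Breadth and dominance did not follow this gradient. The share of clusters longer than 10 bp was 54.8 to 56.1% in the 5 zones of *T. urartu* and 43.7 to 46.6% in those of 1A to 7A.

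The profile of clusters over 20 equal stretches was closely alike for most chromosome pairs. Pearson's r between *T. urartu* and its namesake was 0.92 for chromosome 1, 0.93 for chromosome 2, 0.90 for chromosome 3, 0.94 for chromosome 5 and 0.91 for chromosome 6. It was lower for chromosome 7 (r = 0.76) and lowest for chromosome 4 (r = 0.69). Each r describes 20 stretches, which share the gradient from ends to middle, and the 42 pairs of chromosomes with different numbers had a median r of 0.63, between 0.04 and 0.86. Chromosome 4 was thus near that median, while chromosomes 1, 2, 3, 5 and 6 lay above the highest of these 42 values. Tu4 correlated with 4B at r = 0.62 and with 4D at r = 0.79, above its value with 4A, and Tu7 correlated with 7D at r = 0.76, the same as with 7A.

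**Figure D4:**
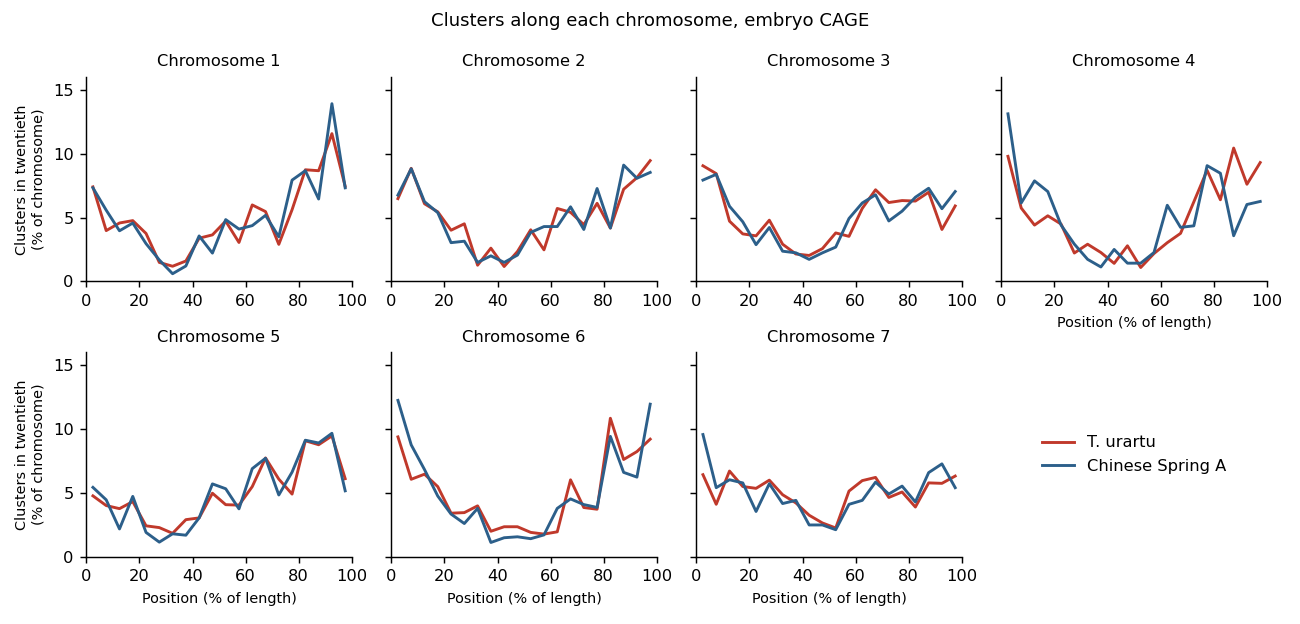
Share of a chromosome's clusters in each twentieth of its length (vertical axis, %) along the chromosome (horizontal axis, % of length), for *T. urartu* (red) and the A chromosomes of Chinese Spring (blue), pooled over libraries. The lines run together on chromosomes 1, 2, 3, 5 and 6, and part on chromosome 4, where the stretch from 85 to 90% holds 10.4% of the clusters of Tu4 and 3.58% of those of 4A.

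The same was asked of tags, with a model fitted over all 140 twentieths (edgeR quasi-likelihood test, TMM scaling, Benjamini-Hochberg adjusted p of at most 0.05). Of the 140 stretches 98 (70%) were called, 45 (32.1%) higher and 53 (37.9%) lower in *T. urartu*. With such a background a call alone says little about a stretch, and 45 higher and 53 lower became 61 and 29 without TMM scaling, which moved the median of all stretches from -0.04 to 0.17 on the log2 scale. When each occupied position was counted once, 89 stretches (63.6%) were called, and the median size of the log2 difference fell to 0.20, against 0.42 for tags. Among the stretches called in both ways, 58 of 66 had the same sign.

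The stretches with the largest differences in occupied positions lay on chromosome 4. In the 10th twentieth, Tu4 had 0.996 and 1.07% of all tags, against 0.0829, 0.0974 and 0.0984% on 4A (log2 difference 3.27 ± 0.11 (SE), adjusted p = 9.38e-108, edgeR). In the 18th twentieth the shares were 2.11 and 1.90% on Tu4, against 0.307, 0.308 and 0.366% on 4A (log2 difference 2.40 ± 0.11). In the opposite direction, the 13th twentieth held 0.121 and 0.115% on Tu4, against 0.467, 0.573 and 0.469% on 4A (log2 difference -2.29 ± 0.11), and the 17th held 0.548 and 0.534% on Tu4, against 2.24, 2.81 and 2.24% on 4A (log2 difference -2.37 ± 0.15). The groups do not overlap in any of these stretches, as in 104 of all 140. Without the 100 highest clusters of each species the log2 differences were smaller, at 1.20 in the 10th, 1.30 in the 18th, -1.94 in the 13th and -1.24 in the 17th twentieth. By occupied positions the log2 differences were 1.01 in the 10th, 1.17 in the 18th, -1.39 in the 13th and -1.15 in the 17th twentieth. These 4 of 140 stretches were beyond 1 in size by positions. The 6th twentieth of chromosome 5, at 0.99, and the 13th of chromosome 6, at -0.98, lay just inside that limit. By clusters, Tu4 had 69 in the 10th twentieth, against 24 on 4A, and 258 in the 18th, against 60 on 4A. It had 75 clusters in the 13th, against 100 on 4A, and 158 in the 17th, against 142 on 4A, where *T. urartu* had 1.47 times as many clusters on the chromosome as a whole. The median size of the log2 difference in positions was 0.41 on chromosome 4, against 0.14 to 0.33 on the other 6 chromosomes.

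Of the other stretches named by their p-value, the 6th twentieth of chromosome 2 held 1.34 and 1.40% of tags in *T. urartu*, against 0.246, 0.263 and 0.289% on 2A (log2 difference 2.15 ± 0.10). It holds the highest cluster of Tu2, and without the 100 highest clusters of each species the log2 difference was 0.33. The 13th twentieth of chromosome 6 held 0.0744 and 0.0683% in *T. urartu*, against 0.465, 0.484 and 0.391% on 6A (log2 difference -2.85 ± 0.13), and the difference was -1.82 without the 100 highest clusters. The adjusted p of the 6 named stretches varied widely with the rule, up to 0.00447 for chromosome 2 and up to 1.16e-06 for the other 5.

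**Figure D5:**
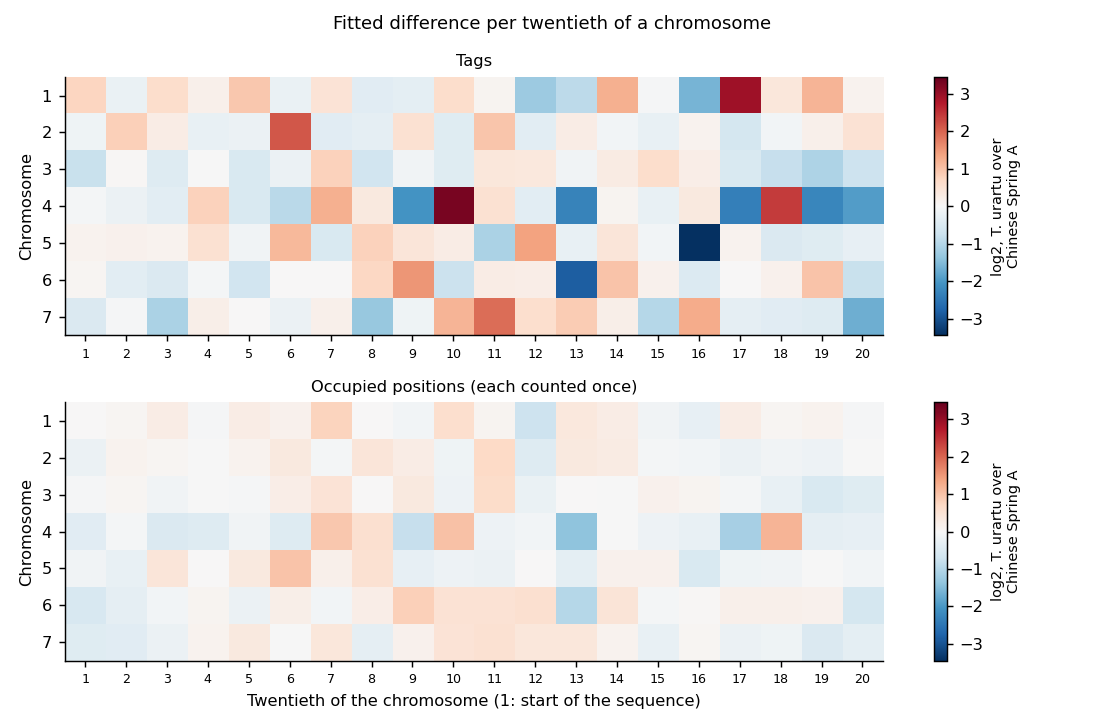
Fitted log2 difference of *T. urartu* over 1A to 7A (colour; red higher and blue lower in *T. urartu*) in each twentieth (horizontal axis) of chromosomes 1 to 7 (vertical axis), for tags (top) and for occupied positions counted once (bottom). The differences in tags reach 3.27 and -3.45, and those in occupied positions go beyond 1 in size in 4 stretches of chromosome 4, with values of 0.99 and -0.98 on chromosomes 5 and 6.

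Tags were shared out differently among the chromosomes. Chromosome 5 held 15.6 and 15.9% of the tags in *T. urartu*, against 29.9, 25.1 and 29.2% on 5A. Chromosome 1 held 17.1 and 17.4% in *T. urartu*, against 10.1, 10.97 and 9.25% on 1A, and chromosome 2 held 15.3 and 14.9% in *T. urartu*, against 11.03, 12.2 and 10.2% on 2A. The groups also did not overlap for chromosome 4, with 11.9 and 11.6% in *T. urartu*, against 14.1, 15.2 and 13.0% on 4A, and for chromosome 6, with 9.71 and 8.81%, against 7.62, 8.36 and 7.63%. They overlapped for chromosomes 3 and 7. No chromosome passed the threshold after adjustment over 7 tests (smallest adjusted p = 0.175, exact permutation test), which 2 libraries against 3 cannot reach. The size of these differences rested largely on the 100 highest clusters of each species. Without them chromosome 5 held on average 15.5% in *T. urartu*, against 15.8% on 5A (exact permutation p = 0.3). The difference of means on chromosome 5 was then -0.30 percentage points, in place of -12.3, on chromosome 1 it was 1.02 in place of 7.18, and on chromosome 2 it was 0.46 in place of 3.98. The direction turned for chromosomes 6 and 7. The groups still did not overlap for 6 chromosomes without these clusters, against 5 with them. Counted by clusters the differences were small, the largest being chromosome 4, with 13.2% of clusters in both *T. urartu* libraries, against 14.92, 14.46 and 14.98% on 4A.

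A few clusters held much of the tags in both species. The 100 highest held 42.7 and 43.5% of the tags in *T. urartu*, against 49.4, 44.6 and 47.5% on 1A to 7A (exact permutation p = 0.2), and 200 and 190 clusters were enough for 50% of the tags in *T. urartu*, against 109, 192 and 150 on 1A to 7A. The concentration on the single highest cluster differed more. It took 4.06 and 4.06% of the tags in *T. urartu*, against 16.4, 11.04 and 14.99% on 1A to 7A. Of the 100 highest clusters, 98 in *T. urartu* and 96 on 1A to 7A were longer than 10 bp, yet 80% of their tags lay within a median of 6 bp in *T. urartu* and 7 bp on 1A to 7A. High clusters thus combined a long flank of rare starts with a narrow core in both species. Chromosome 5 had the most of them, with 20 in *T. urartu* and 23 on 5A, and chromosome 6 the fewest, with 5 and 6 in the same order. In the outer 10% at each end lay 34 of the 100 in *T. urartu* and 36 of the 100 on 1A to 7A.

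The highest cluster of *T. urartu* lay on the plus strand of Tu1 (489850309 to 489850483, at 83.9% of the length), with 38205 and 38125 RPM and 55.0 and 54.4% of its tags at position 489850317 in both libraries. The next was on the minus strand of Tu7 (553030830 to 553031469, at 76.8%), with 28077 and 37448 RPM, where the top position differed by 1 base between the libraries. Another 2 of the 5 highest lay side by side on the plus strand of Tu7 at 94.4% of the length (679437017 to 679437039 and 679438807 to 679438967), with 21204 and 26986 RPM and with 19405 and 17793 RPM. The last of the 5, on the plus strand of Tu5 (576243172 to 576244013, at 87.1%), was of another kind. It had 15876 and 14479 RPM spread over 842 bp, with 80% of the tags in 433 bp and only 10.7 and 8.55% at the top position.

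The highest cluster of the A chromosomes lay on the plus strand of 5A (part 2, 80047756 to 80047973, at 75.1% of the length), with 53160, 33766 and 46154 RPM and 88.7, 89.7 and 79.2% of its tags at position 80047769. It accounts for most of the tags in the 16th twentieth of 5A, which held 17.3, 12.0 and 16.0% of all tags on 1A to 7A, against 1.48 and 1.73% in that of Tu5. A high cluster of Tu5 on the same strand at 75.5% of the length (499411715 to 499411899) had 7204 and 9343 RPM, with 66.6 and 65.7% at its top position and 80% of the tags in 59 bp. The second highest of the A chromosomes was on the minus strand of 7A (part 2, 244505580 to 244505850, at 94.3%), with 10588, 8825 and 14160 RPM, and the third on the plus strand of 4A (part 2, 226606190 to 226606450, at 91.2%), with 6609, 6062 and 4708 RPM spread so that 80% of the tags took 145 bp. The highest on 1A (part 1, 364046763 to 364046947, minus strand), listed by the study under TraesCS1A02G202900, had 6651, 5969 and 3410 RPM. The last of the 5, on the plus strand of 7A at 94.6% of the length (part 2, 246953805 to 246953829), varied most between libraries relative to its mean among the 5 highest, with 3157, 956 and 10217 RPM.

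The highest clusters of chromosome 3 lay at nearly the same place in the 2 species, on the minus strand at 58.9% of the length of Tu3 (439934483 to 439934576) and at 59.0% of that of 3A (part 1, 442901371 to 442901518). On the other chromosomes the highest clusters lay further apart. With *T. urartu* first, they lay at 83.9 and 61.3% on chromosome 1, 25.6 and 86.2% on 2, and 19.5 and 91.2% on 4. On chromosome 5 they lay at 87.1 and 75.1%, on 6 at 93.8 and 82.7%, and on 7 at 76.8 and 94.3%. The match on chromosome 3 was seen afterwards, and whether the sequences correspond was not tested. The chromosome 3 clusters had 13871 and 13337 RPM in *T. urartu*, against 3420, 2999 and 2335 RPM on 3A, but RPM is not on 1 scale between the species. Of the tags on the 7 chromosomes these clusters held 1.47 and 1.42% in *T. urartu*, against 1.05, 0.980 and 0.758% on 3A. Their top positions held 48.5 and 47.3% of the tags in *T. urartu*, against 49.3, 52.0 and 49.6% on 3A. In both, 80% of the tags lay in 5 bp. The sharpest high clusters, with more than 95% of the tags at 1 base, were weaker. In *T. urartu* they lay on the plus strands of Tu4 (472388591 to 472388633, 1865 and 1013 RPM) and of Tu7 (662032998 to 662033034, 1449 and 982 RPM). On the A chromosomes they lay on the minus strands of 1A (part 1, 466905944 to 466905948, with 68.9, 37.7 and 530 RPM) and of 7A (part 1, 7523568 to 7523569, with 240, 137 and 240 RPM). In each library of their species these clusters kept at least 95.2% of their tags at the top base. The remaining highest clusters of a chromosome had 7577 to 11763 RPM in *T. urartu* (Tu2, Tu4 and Tu6) and 1524 to 4779 RPM in Chinese Spring (2A and 6A). The same limit of scale holds for these RPM.

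The values of subgenome A were close to those of B and D in the same libraries for shape and partners. Within a library, A minus B was between -0.83 and 0.73 percentage points and A minus D between -2.15 and 1.04 percentage points for clusters longer than 10 bp. For divergent partners, A minus B was between -0.04 and 0.23 and A minus D between -0.56 and -0.06 percentage points. These are smaller than the 3.57 percentage points between *T. urartu* and subgenome A. The outer 10% at each end were different, since they held 31.9 to 35.2% of the tags of subgenome A, against 42.9 to 46.9% on B and 40.8 to 42.8% on D. By clusters the order was the other way, with 30.8 to 31.2% on A, against 25.1 to 25.7% on B and 29.3 to 29.6% on D, and by occupied positions A held 33.3 to 33.9%, against 29.3 to 30.5% on B and 32.6 to 33.5% on D. The 3 values of a library share its RNA and its depth, and no test was made.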

How the data were processed

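Per the methods and labels, the authors made the CAGE files from the first read of each pair. They trimmed adaptors and the first 9 bases with Cutadapt, removed organelle and ribosomal reads with SortMeRNA, mapped with Bowtie2, kept uniquely mapped reads, and deposited counts of 5′ ends per base and strand, without normalization. The Chinese Spring reads were placed on version 1.0 of the IWGSC assembly, whose chromosomes are split into 2 parts in the files. The reference of *T. urartu* is not given in the sources used here. Positions are printed 1-based as the files give them. A chromosome's length was taken as the highest position with a tag in any CAGE library of the species, so relative positions are approximate.

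From the counts, clusters, pairs and shares were computed with Python 3.11.15 scripts tested on simulated data, and a difference of library values was tested by exact permutation of libraries. Lines that repeat a position in 1 file (8 and 21 in *T. urartu*, 23 in 1 Chinese Spring embryo library) were summed. A count of 0 allows up to 0.508 and 0.344 RPM in *T. urartu*, against 0.198, 1.01 and 0.150 RPM in the Chinese Spring embryo libraries (3 tags, counting error only). Tags in 140 twentieths were fitted with edgeR 4.0.16 (quasi-likelihood, TMM, 5 libraries), with DESeq2 1.42.0 as an alternative. Replicate numbers 1 and 2 occur in both groups, but nothing in the labels ties equal numbers together. Gene identifiers on 1A come from the study's list of start sites, in which 470 of 1487 clusters of 1A had one.

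The members, lists and tests were chosen with earlier results of these data known. The named clusters are, in each species, the highest on each chromosome, the 5 highest in all, the 3 strongest divergent pairs, and the 2 highest clusters each with more than 95% of tags at 1 base or with 80% of the tags over more than 50 bp; the named stretches are the 3 higher and 3 lower with the smallest p. Joining distance, tag, library and RPM minimums, thinning, pair distance, zone width, scaling and each replicate were varied. Counting loci, each library alone, its 8000 highest clusters, occupied positions, and thinning with pairs of libraries were added after seeing the data.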

Additional observations from a re-analysis of the deposited data

Results flagged for a closer look

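Tags outside the placed chromosomes, which no comparison used, made up 5.79 and 6.07% of the *T. urartu* libraries, against 1.12, 1.13 and 0.942% of the Chinese Spring embryo libraries. They stand out only as signal in data left aside, far above the 3 tags that a count of 0 allows. In *T. urartu* these tags fell on 2457 unplaced sequences, and the one with the most tags in the second library held 2.95 and 5.70% of them in the 2 libraries.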

How the results depend on the processing

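Of 307 comparisons of a result with an alternative setting, 274 kept their direction and side of the threshold or, for counts, stayed within 1.5 times. Another 22 moved by more and 11 reversed, and the cause was not tested. Part of the 274 was fixed in advance. In exact permutation tests of 2 libraries against 3 only the direction could change, as p cannot fall below 0.1. The *T. urartu* cluster count cannot change when a Chinese Spring library is left out. Requiring all libraries left 4396 clusters on 1A to 7A (ratio 4.26), thinning left 11613 in *T. urartu*, and loci numbered 9613 there. Leaving out a Chinese Spring library gave 6255 to 7623 clusters on 1A to 7A (ratio 2.45 to 2.99), and with thinning 5316 to 5637 (5378 without replicate 2), against 11613 in *T. urartu*. A *T. urartu* library could not be left out of the cluster counts, since 1 library cannot meet the 2-library rule; for the per-library measures the clusters were kept and the library's value dropped. As *T. urartu* minus 1A to 7A, in percentage points, tags in the outer 20% at each end differed by 3.78 (outer 10%: -1.13) and tags in the highest 1% of clusters by 1.54 (100 highest -4.02). Leaving out 1 library gave -0.667 to 4.33 bp for the width holding 80% of the tags and -26.1 to 3.25 points for the top position, both reversed without *T. urartu* replicate 2. Called in each library alone, both differences were 0, and against all 11 Chinese Spring libraries -0.273 bp and 4.81 points. Chromosome 6 turned to -0.48 without the 100 highest clusters and to -0.18 by occupied positions, chromosome 7 to -0.45 and -0.18, and chromosome 3 lay at -0.14 (without Chinese Spring replicate 3) to 0.81 with 1 library left out. By positions 3 chromosomes did not overlap, against 5 by tags. Of the twentieths, 29 were lower without TMM scaling, and 48 of 70 were called with 10 stretches per chromosome (25 higher, 23 lower). Leaving out 1 library gave 70 to 98 called twentieths, of which 36 to 48 were higher and 34 to 54 lower, with the fewest without *T. urartu* replicate 1; the lone *T. urartu* library is then assumed to vary like the others.

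The replicate block was fitted without Chinese Spring replicate 3 and gave 96 called twentieths (47 higher, 49 lower). Without that library and without the block, 98 were called (48 higher, 50 lower). The deviations of equally numbered libraries correlated at -0.02 and -0.04 over the 140 twentieths. With 2 *T. urartu* libraries the deviations of one mirror those of the other. These values therefore cannot show whether equally numbered libraries were handled together.

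Depth limits the low clusters, since the shallowest library held 908997 tags on 1A to 7A. Breadth and top position depended on depth and on single libraries in both species, and the exact permutation test of 2 libraries against 3 cannot pass a threshold of 0.05.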
